A study of Mus musculus with 14 samples.

Results

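The genes described here encode the contractile machinery, the calcium handling and the energy supply of skeletal muscle, read from RNA labelled as murine lymph node on 14 Affymetrix arrays of 1 colour each. Their probe sets were found by gene symbol in the platform annotation. The list of symbols was itself chosen with earlier results of these data known. Of 44 symbols looked for, 41 were annotated to at least 1 of the 12488 probe sets, while Mybpc2, Neb and Ttn were not found in that annotation and were not analysed here. The 41 genes had 57 probe sets, 1 for 28 genes and several for 13. Where a gene had several, the brightest on average stood for it.

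The arrays fell into 6 groups by genotype and time after ionizing radiation. The sources used here state no dose. Mice labelled Atm-/- (KO), which lack the kinase activated by DNA double-strand breaks, gave 3 untreated arrays, 2 arrays at 30 min and 2 at 120 min after radiation. Mice labelled Atm+/+ (WT) gave 3 untreated arrays, 2 at 30 min and 2 at 120 min. The labels give neither the disrupted allele nor the strain, age or sex, and they do not say whether the replicates, lettered A, B and C, came from separate animals, so each p-value reflects the spread between these arrays alone.

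In striated muscle, force comes from myosin heavy chains of the thick filament that pull on actin of the thin filament. Troponin and tropomyosin on the thin filament keep the myosin sites closed until calcium binds troponin C. An action potential is sensed by the voltage-gated calcium channel of the transverse tubule, which opens the ryanodine receptor of the sarcoplasmic reticulum. The SERCA1 pump then returns the calcium to its store, where calsequestrin holds it. Fast and slow twitch fibres use different genes for most of these parts, including myosin chains, all 3 troponin subunits and calsequestrin. Lymph node itself contains no skeletal muscle fibres, although muscle lies close to several superficial nodes.

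The sequences below are the 250 bases before the annotated start of 4 members, from RefSeq on GRCm38.p6. They are shown because Acta1 had the largest range over the arrays, because Myh4 and Pygm followed it closely, and because the slow gene Tnni1 did not. The promoter of Acta1 is at chr8:123894776-123895025 on the minus strand, that of Myh4 at chr11:67237562-67237811 on the plus strand, that of Pygm at chr19:6384158-6384407 on the plus strand, and that of Tnni1, the first of 2 in the table, at chr1:135799171-135799420 on the plus strand. Capitals mark the E-box CANNTG, the site type bound by MyoD family factors, and the CArG box, the site type bound by serum response factor.
Acta1: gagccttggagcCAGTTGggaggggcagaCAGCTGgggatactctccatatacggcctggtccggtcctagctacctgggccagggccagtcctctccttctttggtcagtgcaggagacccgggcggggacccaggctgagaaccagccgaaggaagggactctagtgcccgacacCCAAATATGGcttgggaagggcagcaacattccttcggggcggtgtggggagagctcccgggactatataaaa
Myh4: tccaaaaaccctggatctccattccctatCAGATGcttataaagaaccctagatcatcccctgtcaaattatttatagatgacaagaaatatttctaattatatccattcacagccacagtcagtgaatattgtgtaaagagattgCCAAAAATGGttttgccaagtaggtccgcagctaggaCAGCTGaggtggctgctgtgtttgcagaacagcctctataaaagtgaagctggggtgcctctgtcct
Pygm: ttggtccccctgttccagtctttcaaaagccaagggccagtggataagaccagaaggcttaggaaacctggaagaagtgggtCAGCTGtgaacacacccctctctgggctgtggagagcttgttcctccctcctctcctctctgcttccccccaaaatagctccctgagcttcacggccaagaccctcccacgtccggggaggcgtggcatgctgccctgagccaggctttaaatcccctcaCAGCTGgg
Tnni1: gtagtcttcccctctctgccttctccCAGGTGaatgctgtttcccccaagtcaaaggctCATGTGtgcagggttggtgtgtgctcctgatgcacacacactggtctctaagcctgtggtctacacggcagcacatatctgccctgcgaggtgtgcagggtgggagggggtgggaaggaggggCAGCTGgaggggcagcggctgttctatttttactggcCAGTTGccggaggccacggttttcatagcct

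The promoter of Acta1 had 2 E-boxes, starting at -238 and -221 relative to the annotated start, and a CArG box at -73. Myh4 had E-boxes at -221 and -67 and a CArG box at -104. Pygm had E-boxes at -168 and -8, and Tnni1 had 4, at -224, -191, -68 and -31. E-boxes and CArG boxes thus occurred both in members that moved together and, for the E-box, in one that did not. Promoters of this length were given for 33 of the 41 members. An E-box on either strand was in 29 of those 33 (87.9%) and in 69.3% of 27025 genes with a promoter. The CArG box, searched on both strands, was in 4 of 33 (12.1%), which were Myh4, Myl3, Acta1 and Ldb3, and in 1.62% of all genes. The MEF2 motif, likewise searched on both strands, was in 6 of 33 (18.2%), which were Myh1, Myh4, Pvalb, Casq2, Capn3 and Pgam2, and in 1.99% of all genes. These matches describe letters in the window and not bound sites. Tnnt3, Tnni2, Actn3, Tcap, Car3, Cacng1, Sln and Myod1 had no entry.

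The deposited values are intensities on a linear scale in arbitrary units. Because every probe set responds differently, values are compared between arrays for 1 probe set and not between genes. Tests were made on quantile-normalized log2(value + 32), a scale that understates changes of genes with low values. Testing required at least 2 arrays above their own 40th percentile (38.3 to 55.3). That left 8938 probe sets, which represented 34 of the 41 members. Myh2, Tnnc1, Myl2, Myl3, Myh7, Actn2 and Chrna1 were not tested, and none of their probe sets exceeded 66.5 on any array. Ldb3 passed only through 2 untreated KO arrays, A and C. Tnni2, Myh1, Cacng1 and Mef2c had fewer than 2 arrays above the percentile apart from those arrays. Mb lay above it on 4 arrays, all of them KO.

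Untreated KO arrays A and C and the array KO 120 min A stood apart from the others in these genes. Arrays A and C of untreated KO held the 2 highest normalized values in 20 of the 34 tested members (58.8%), against 118 of all 8938 tested probe sets (1.32%). Both lay above the third untreated KO array, B, in 28 members (82.4%, against 34% of all probe sets). KO 120 min A held the lowest value in 16 members (47.1%, against 9.31%), and it lay below KO 120 min B in 28 (82.4%, against 52.2%). The summed intensity of the 41 members was 14690, 6896 and 17340 on untreated KO arrays A, B and C, 7386 and 7088 (30 min) and 3906 and 7180 (120 min). In WT the same sum was 6709, 5853 and 4353 (untreated), 7462 and 5339 (30 min) and 7451 and 7591 (120 min). Results that rest on these arrays are given with and without them.

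**Figure D1:**
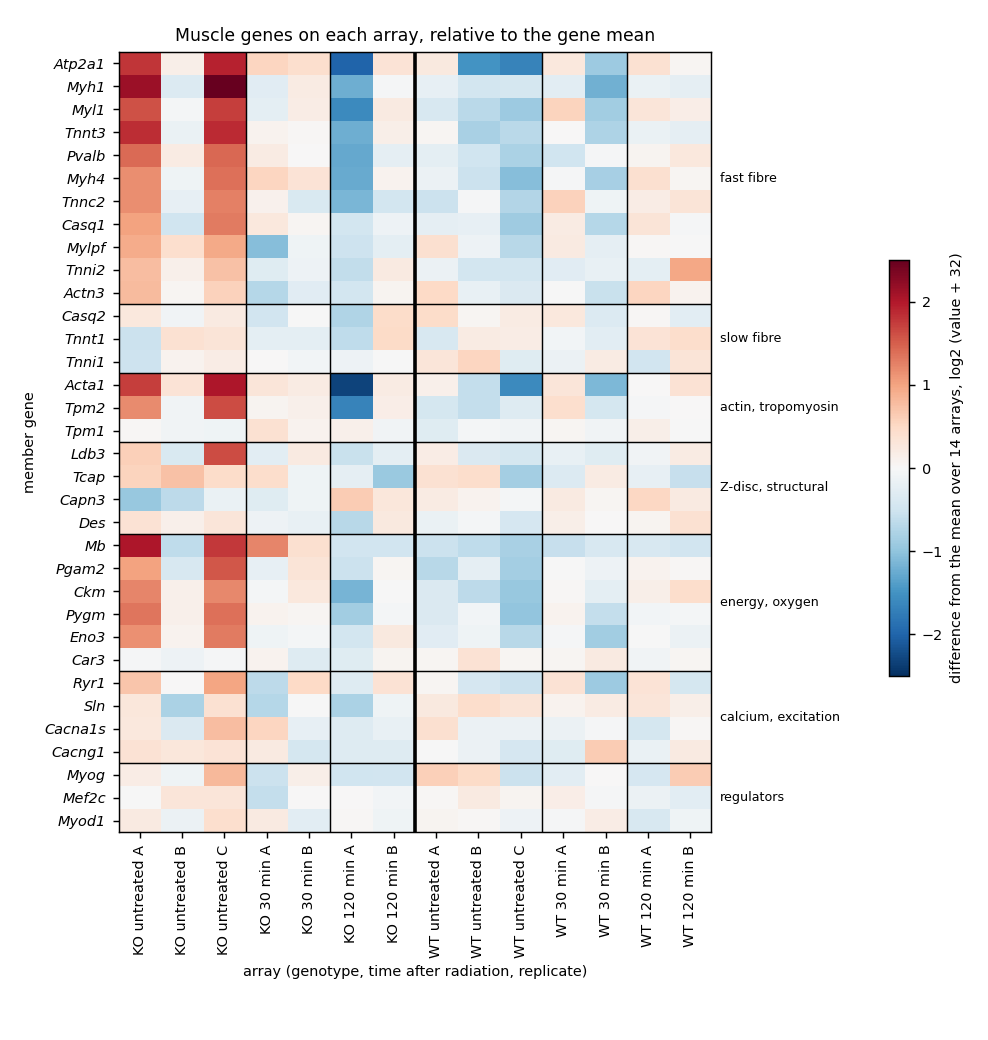
Heat map of the 34 tested muscle genes (rows, grouped by role) on the 14 arrays (columns, KO left of WT, each from untreated to 120 min). Colour gives the difference of the normalized log2(value + 32) from the gene's mean over all arrays, red above it and blue below. Untreated KO arrays A and C are red and KO 120 min A is blue for most fast fibre, actin and energy genes, while untreated KO arrays A and C do not stand out in the slow fibre rows.

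Acta1, the actin of the skeletal muscle thin filament, spanned the widest range of all members, 4.34 on the log2 scale. In KO its intensities were 2965.0, 1253.3 and 3968.7 (untreated), 1164.4 and 1231.4 (30 min) and 176.3 and 1169.6 (120 min). Acta1 in WT read 1029.7, 646.5 and 314.5 (untreated), 1242.3 and 446.5 (30 min) and 1065.7 and 1305.4 (120 min). Arrays A and C of untreated KO were more than 2-fold above every other array, KO 120 min A was the lowest, and the untreated KO and untreated WT groups did not overlap, KO being higher. Tpm2, a beta-tropomyosin that runs along actin, gave 340.9, 125.6 and 481.8 (untreated), 151.5 and 145.8 (30 min) and 21.5 and 152.3 (120 min) in KO. Tpm2 in WT gave 92.3, 81.0 and 98.0 (untreated), 190.4 and 86.6 (30 min) and 124.3 and 133.2 (120 min). The same KO arrays were highest and lowest. A second Tpm2 probe set did not follow it: its lowest and highest values, 10.8 and 141.6, were both on WT arrays at 30 min. Tpm1, the alpha-tropomyosin that is also made in smooth muscle and other cells, lay between 321.4 and 499.2 on all arrays, and its highest array was KO 30 min A.

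Among fast fibre genes, 12 were on the array and 11 were tested. Atp2a1, which encodes the SERCA1 calcium pump, had KO intensities of 1386.3, 431.5 and 1589.7 (untreated), 547.7 and 558.9 (30 min) and 76.2 and 505.6 (120 min). Atp2a1 in WT had 468.5, 122.0 and 99.3 (untreated), 481.7 and 193.8 (30 min) and 556.7 and 413.4 (120 min). Again arrays A and C of untreated KO were highest, whereas array B lay within the untreated WT range. The pump's second probe set ran from 25.3 on KO 120 min A to 712.4 on untreated KO array C.

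Myh1 encodes the myosin heavy chain of type 2X fibres. Its KO values were 320.0, 33.6 and 430.9 (untreated), 39.7 and 54.6 (30 min) and 2.0 and 46.6 (120 min). Myh1 in WT gave 40.4, 27.2 and 23.5 (untreated), 33.5 and 2.2 (30 min) and 31.8 and 37.5 (120 min). The other 12 arrays lay in a low range, well below untreated KO arrays A and C. Myh4, the chain of the fastest type 2B fibres, had 549.5, 212.3 and 657.3 (untreated), 342.4 and 309.4 (30 min) and 79.3 and 251.7 (120 min) in KO. Myh4 in WT had 207.6, 154.1 and 91.6 (untreated), 226.4 and 114.5 (30 min) and 326.5 and 243.7 (120 min). The same KO arrays were at the ends, and the untreated KO and WT groups did not overlap. Its other tested probe set stayed between 44.4 and 106.3 and had its highest value on untreated WT array A. Myh2, the type 2A chain, did not exceed 28.1. Myh1, Myh2 and Myh4 lie together on chromosome 11 and are near-identical over long stretches, so how far their probe sets read 1 gene alone is uncertain.

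The fast myosin light chains followed the heavy chains on these arrays. Myl1, the alkali light chain, had KO intensities of 1330.4, 409.3 and 1493.9 (untreated), 346.6 and 508.4 (30 min) and 119.6 and 511.2 (120 min). Myl1 in WT had 316.1, 256.1 and 215.8 (untreated), 653.6 and 221.8 (30 min) and 564.0 and 482.3 (120 min). Untreated KO arrays A and C were 2 or more times the highest WT array, and KO 120 min A was again lowest. Mylpf, the fast regulatory light chain, was highest at 304.8 on untreated KO array C and lowest at 60.5 on KO 30 min A.

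Tnnt3 encodes fast troponin T, which ties the troponin complex to tropomyosin. In KO it gave 537.0, 112.9 and 557.7 (untreated), 148.8 and 128.0 (30 min) and 38.3 and 143.8 (120 min). Tnnt3 in WT gave 138.0, 61.3 and 66.3 (untreated), 130.1 and 58.8 (30 min) and 105.1 and 104.7 (120 min). Arrays A and C of untreated KO were more than 3 times any other array. Tnnc2, the calcium-binding fast troponin C, had 489.4, 171.6 and 539.7 (untreated), 224.7 and 146.7 (30 min) and 75.8 and 137.8 (120 min) in KO. Tnnc2 in WT had 133.9, 201.1 and 105.4 (untreated), 320.1 and 184.5 (30 min) and 233.8 and 262.4 (120 min). Here the array WT 30 min A came next after untreated KO arrays A and C. Tnni2, the inhibitory subunit, was low, with KO values of 64.5, 31.0 and 60 (untreated), 14.5 and 15.3 (30 min) and 3.9 and 33.4 (120 min). Tnni2 in WT was 22.7, 9.0 and 6.9 (untreated), 12.6 and 14.7 (30 min) and 10.5 and 77.0 (120 min). Its highest value was on WT 120 min B, so it was the 1 tested fast gene in which untreated KO arrays A and C were not the 2 highest.

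Pvalb encodes parvalbumin, the soluble calcium buffer that speeds relaxation of fast fibres. Its KO intensities were 1577.1, 707.4 and 1756.9 (untreated), 683.9 and 646.2 (30 min) and 237.6 and 523.7 (120 min). Pvalb in WT had 513.0, 426.4 and 353.9 (untreated), 429.9 and 621.8 (30 min) and 691.3 and 746.9 (120 min). By this probe set all 3 untreated KO arrays lay above all 3 untreated WT arrays, and KO 120 min A was the lowest array. A second Pvalb probe set had 208.2, 55.6 and 160.4 on untreated KO arrays and 89.0, 57.0 and 35.5 on untreated WT arrays. There the untreated groups overlapped, and untreated WT array C was the lowest array. Casq1, the fast fibre calsequestrin, ran from 78.2 on untreated WT array C to 481.1 on untreated KO array C, with a median of 164.4. Actn3, the Z-disc alpha-actinin found in fast fibres, ran from 35.1 to 146.0 by its representative probe set and from 9.8 to 316.7 by the other, and untreated KO arrays A and C were the 2 highest by both.

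**Figure D2:**
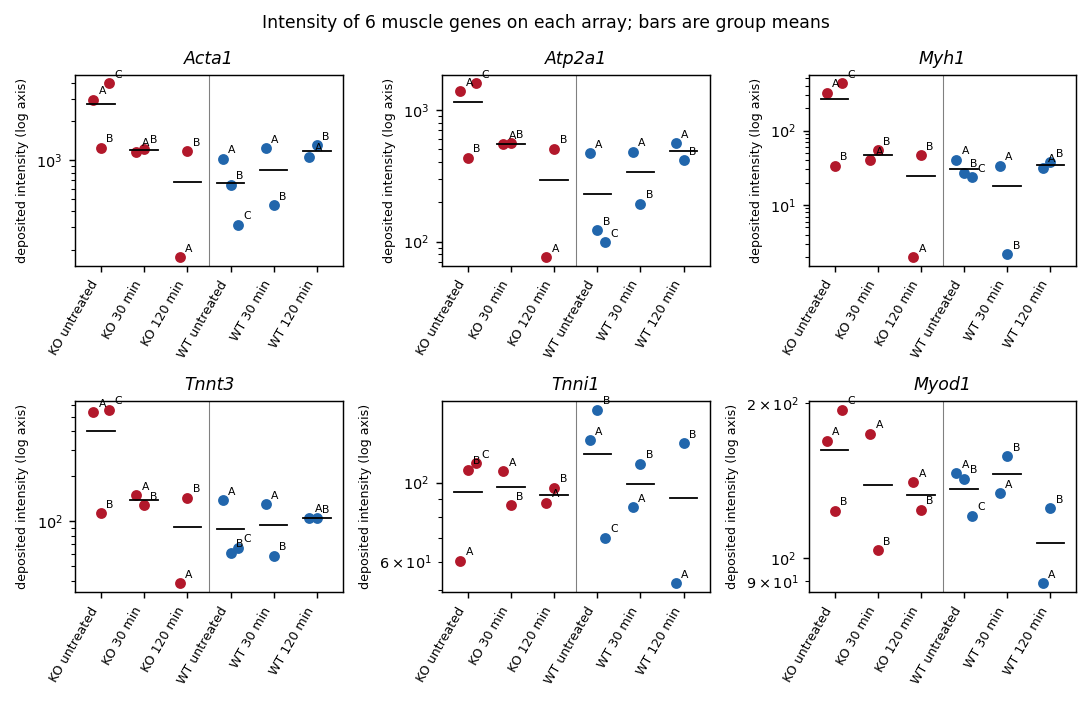
Deposited intensity (log axis) of 6 muscle genes on each array, by group along the horizontal axis, with KO in red, WT in blue, replicate letters beside the points and bars at the group means. In Acta1, Atp2a1, Myh1 and Tnnt3 untreated KO arrays A and C lie above the rest and KO 120 min A lies lowest, whereas Tnni1, a slow fibre gene, and Myod1, a regulator, do not show that order.

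Slow fibre genes were mostly at low intensity. Of 7 on the array, 3 were tested. Tnnc1, the troponin C of slow fibres and heart, was at most 10.1, the ventricular and slow light chains Myl2 and Myl3 were at most 44.6 and 6.8, and the slow myosin heavy chain Myh7 was at most 57.5 by either probe set. Tnni1, the slow inhibitory troponin, had KO values of 60.4, 108.7 and 113.4 (untreated), 107.6 and 86.3 (30 min) and 87.9 and 96.7 (120 min). Tnni1 in WT had 131.5, 160.4 and 70.1 (untreated), 85.4 and 113.1 (30 min) and 52.1 and 129.1 (120 min). Untreated KO array A was among the lowest arrays here, and the untreated KO values lay inside the WT range of 52.1 to 160.4. Tnnt1, slow troponin T, gave 14.1, 59.1 and 50.7 (untreated), 28.4 and 21.1 (30 min) and 11.5 and 61.9 (120 min) in KO. Tnnt1 in WT gave 23.2, 46.0 and 41.4 (untreated), 31.7 and 21.2 (30 min) and 44.5 and 59.8 (120 min). Its highest and lowest arrays were both KO at 120 min, and untreated KO array A was close to the bottom. Tnnc1, the third slow troponin, gave 3.2, 4.2 and 2.8 (untreated), 3.3 and 2.9 (30 min) and 2.9 and 4.3 (120 min) in KO. Tnnc1 in WT gave 5.7, 2.9 and 10.1 (untreated), 2.8 and 5.1 (30 min) and 1.8 and 6.9 (120 min). It was low on every array, and its highest value was on untreated WT array C. Casq2, the calsequestrin of slow fibres and heart, ran from 9.1 on KO 120 min A to 65.5 on untreated WT array A.

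Of the Z-disc and structural genes, Ldb3, which anchors alpha-actinin, reached 58.9 and 151.9 on untreated KO arrays A and C and at most 39.0 elsewhere. Des, the intermediate filament protein desmin, ran from 25.7 on KO 120 min A to 88.8 on WT 120 min B. Tcap, the titin cap, ran from 15 to 116.7 and had its highest value on untreated KO array B. Actn2, the alpha-actinin of all muscle fibres, did not exceed 31.0. Capn3, the muscle calpain, went the other way. Its lowest value, 187.1, was on untreated KO array A and its highest, 603.3, on KO 120 min A. The untreated KO arrays had 187.1, 227.3 and 342.9, all below the untreated WT arrays at 441.9, 410.0 and 380.5. A second Capn3 probe set had 57.2, 34.6 and 45.8 on untreated KO arrays and 117.2, 91.2 and 94.2 on untreated WT arrays. The third stayed at or below 47.5.

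Among the energy and oxygen genes, Ckm encodes the muscle creatine kinase that buffers ATP. Its KO intensities were 191.1, 75.4 and 186.2 (untreated), 70.7 and 77.4 (30 min) and 10.6 and 63.7 (120 min). Ckm in WT had 45.6, 29.7 and 15.1 (untreated), 65.2 and 46.2 (30 min) and 64.1 and 97.6 (120 min). Untreated KO and untreated WT arrays did not overlap, and KO 120 min A was lowest. By its other probe set Ckm ran from 11.8 on WT 120 min A to 84.4 on untreated KO array C, with untreated KO at 63.6, 68.9 and 84.4 and untreated WT at 53.3, 62.6 and 53.8. Mb, the oxygen-storing myoglobin, had KO values of 225.6, 9.8 and 181.9 (untreated), 123.1 and 46.1 (30 min) and 13 and 13.1 (120 min). Mb in WT had 16.1, 9.0 and 2.9 (untreated), 9.4 and 13.7 (30 min) and 11 and 14 (120 min). Untreated KO arrays A and C and both KO arrays at 30 min exceeded every WT array, while untreated KO array B did not. The second Mb probe set was at most 22.1.

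Pgam2, the muscle phosphoglycerate mutase of glycolysis, gave 160.1, 43.5 and 248.3 (untreated), 59.7 and 81.9 (30 min) and 34.8 and 67.2 (120 min) in KO. Pgam2 in WT gave 31.2, 50.9 and 18.7 (untreated), 61.4 and 52.6 (30 min) and 60.9 and 65.4 (120 min). The highest were untreated KO arrays A and C, and untreated KO array B lay inside the untreated WT range. Pygm, the muscle glycogen phosphorylase, ran from 23.9 on untreated WT array C to 272.9 on untreated KO array C, with 267.6 on untreated KO array A. Eno3, the muscle enolase, ran from 191.7 on WT 30 min B to 985.5 on untreated KO array C. Car3, the carbonic anhydrase abundant in slow muscle and in fat, stayed between 791.1 and 1230.4 and was highest on untreated WT array B.

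The 4 tested genes of calcium release and excitation each spanned 1.90 or less on the log2 scale, against a median of 1.96 over the members. That scale understates changes of genes with low values, such as Ryr1. Ryr1, the calcium release channel, ran from 5.4 on WT 30 min B to 110.0 on untreated KO array C. Cacna1s, the pore subunit of the voltage sensor, ran from 42.4 to 157.4 and was also highest on untreated KO array C. Its gamma subunit Cacng1 ran from 12.4 to 63.2, with the highest value on WT 30 min B. Sln, the SERCA inhibitor sarcolipin, ran from 20.2 to 91.7 and was highest on untreated WT array B. Chrna1, the acetylcholine receptor subunit of the motor endplate, reached 66.5 on KO 30 min A and at most 13.3 elsewhere.

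The transcriptional regulators of muscle did not follow the contractile genes closely. Myod1, the myogenic determination factor, gave 169.0, 123.5 and 194.2 (untreated), 174.2 and 103.5 (30 min) and 140.3 and 124.1 (120 min) in KO. Myod1 in WT gave 145.9, 142.5 and 120.7 (untreated), 133.5 and 157.4 (30 min) and 89.2 and 124.9 (120 min). Myod1 spanned 0.83 on the normalized log2 scale, on which untreated KO arrays A and C were the 2 highest and KO 120 min A was in the middle of the order. As deposited, KO 30 min A lay between untreated KO arrays A and C. Myog, which drives terminal differentiation, gave 74.5, 56.5 and 128.9 (untreated), 37.4 and 64.0 (30 min) and 34.3 and 34.5 (120 min) in KO. Myog in WT gave 109.1, 100.5 and 28.4 (untreated), 43.8 and 57.6 (30 min) and 29.4 and 111.1 (120 min). Values above 100 and below 30 stood side by side in untreated WT and in WT at 120 min. Mef2c, a MEF2 factor that is also active in B cells, gave 35.3, 53.7 and 49.9 (untreated), 13.9 and 31.1 (30 min) and 37.1 and 32.6 (120 min) in KO. Mef2c in WT gave 39.7, 47.0 and 35.2 (untreated), 42.8 and 31.7 (30 min) and 21.9 and 25.3 (120 min). The lowest array was KO 30 min A, yet 2 other Mef2c probe sets were highest there, at 79.6 and 153.5, so the gene's order over the arrays depends on the probe set.

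None of the 34 tested members passed the threshold, an adjusted p under 0.05 in limma with Benjamini-Hochberg adjustment over 8938 probe sets, in any of the 10 comparisons made. Between untreated genotypes, KO over WT, 0 members passed, against 0.0% of all tested probe sets, and 20 members were higher and 1 lower at an unadjusted p under 0.05, against 2.99% and 2.48% of all. Fast fibre genes held 10 of those 20, energy and oxygen genes 5, actin and tropomyosin genes 2, and slow fibre genes 0. The median difference was 0.88 over the 34 members, 1.40 over the 11 fast genes and -0.10 over the 3 slow genes, against 0.0 over all probe sets. Because some members passed the filter only through the untreated KO arrays, these counts and medians describe the members and carry no test.

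The members with the smallest p between untreated genotypes were Ckm, with 150.9 ± 65.4 in KO and 30.1 ± 15.3 in WT (SD, n = 3 arrays each), and Pvalb, with 1347 ± 561 and 431.1 ± 79.7. Ckm differed by 1.51 ± 0.33 (SE, log2) and Pvalb by 1.53 ± 0.34, both with an adjusted p of 0.635 by limma. Acta1 averaged 2729 ± 1370 in KO and 663.6 ± 358 in WT, a difference of 2.05 ± 0.64 with an adjusted p of 0.713 by limma. Atp2a1 had the largest estimate, 2.26 ± 0.65, with an adjusted p of 0.697 by limma. Capn3 was lower by -0.66 ± 0.20 (adjusted p = 0.708 by limma). Among slow genes Tnni1 was at -0.26 ± 0.27, Casq2 at -0.10 ± 0.29 and Tnnt1 at 0.05 ± 0.30.

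These differences depended on untreated KO arrays A and C. With both left out, a setting chosen after seeing the data, 29 members remained testable and the median difference was 0.31. That fit kept 1 array in untreated KO, so only effect sizes are given. Acta1 was then at 1.03, Atp2a1 at 1.12, Ckm at 0.79, Pvalb at 0.71 and Mb at 0.02. Casq1 was at -0.05, against 1.04 with all arrays. With untreated KO array B left out instead, 4 members were called and were higher in KO, against 7 of all 8873 probe sets then tested (0.0789%). Of these, Pvalb was at 1.94 (adjusted p = 0.0386) and Pgam2 at 1.86 (adjusted p = 0.0361) by limma. The others were Mb, at 2.57, and Myh1. No p is given for either here or below, because they entered the test through the arrays on which they were high. The count of 4 includes both and carries no test.

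Against untreated KO arrays, the KO arrays at 120 min had 0 members called (0.0% of all probe sets), with 1 higher and 19 lower at an unadjusted p under 0.05 by limma, against 3.6% and 3.61% of all. The median change was -0.93 over the members, -1.54 over fast genes and -0.12 over slow genes. Some members passed the filter only through the untreated KO arrays. In every comparison with those arrays the member counts and medians therefore carry no test. Acta1 was at -2.42 ± 0.71 (adjusted p = 0.588 by limma), Pvalb at -1.77 ± 0.37 and Ckm at -1.43 ± 0.37 (both adjusted p = 0.49 by limma). Capn3 was the 1 member higher at that threshold, at 1.04 ± 0.22 (adjusted p = 0.49 by limma). Leaving out untreated KO arrays A and C moved the median to -0.34, and 9 of the 29 members still testable changed sign, among them Casq1 (0.19, against -0.90 with all arrays). Leaving out KO 120 min A gave -0.69. Without untreated KO array B, 2 members were called, Mb (-2.38) and Myh1 (-2.96), and they were the 2 calls among all 8873 probe sets (0.0225%). Both entered the test through the arrays on which they were high, so this count carries no test.

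At 30 min in KO, 0 members were called (0.0% of all), with none higher and 8 lower at an unadjusted p under 0.05 by limma, against 3.84% and 4.56% of all. The median was -0.56, and Mylpf had the lowest adjusted p, at -1.35 ± 0.33 (adjusted p = 0.36 by limma). Without KO 30 min array B, Mylpf was at -1.82. That fit kept 1 array at 30 min in KO, the array on which Mylpf was lowest, so no p is given. With untreated KO arrays A and C left out, 14 of 29 members changed sign, the member median was 0.01 and the median of the 9 fast genes still testable was 0.07, against -0.91 over 11 with all arrays. The KO comparisons share the 3 untreated KO arrays with the genotype comparison, so their opposite signs are not separate observations.

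In WT after radiation no member was called and the medians were smaller. At 30 min 0 were called (0.101% of all) and 0 had an unadjusted limma p under 0.05 (5.03% of all), with a median of 0.10. At 120 min 0 were called (0.503% of all), with 1 higher and 0 lower at an unadjusted p under 0.05, against 4.61% and 4.02% of all. That member was Ckm, at 0.95 (adjusted p = 0.496 by limma) by its representative probe set. Its other probe set did not show this rise, with 11.8 and 54.8 in WT at 120 min and 53.3, 62.6 and 53.8 in untreated WT. The 11 fast genes were all above 0, with a median of 0.67, while the 3 slow genes had a median of -0.26 and the 34 members one of 0.28.

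**Figure D3:**
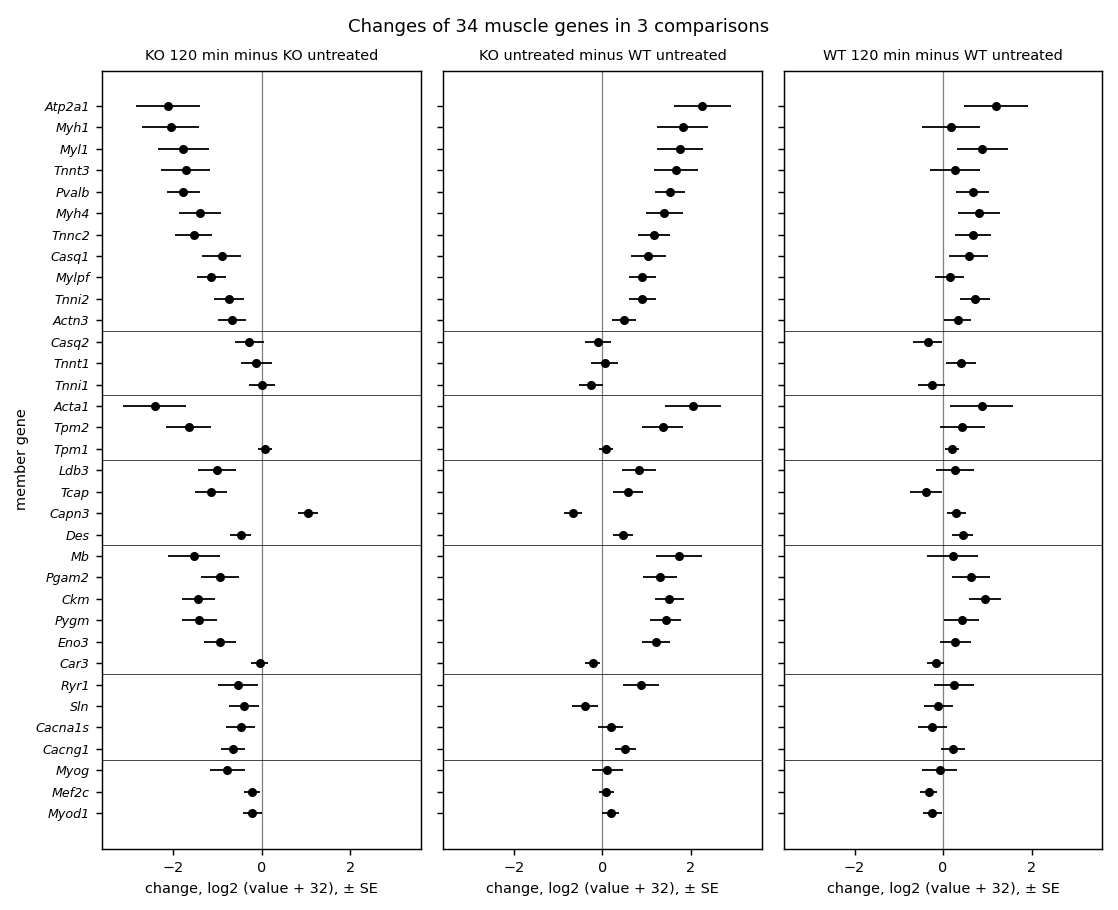
Estimated change of each tested muscle gene (rows) in 3 comparisons, on the log2(value + 32) scale, with bars of ± 1 SE from limma. Fast fibre, actin and energy genes other than Tpm1 and Car3 lie left of 0 in KO at 120 min against untreated KO and right of 0 in untreated KO against untreated WT, Capn3 lies on the opposite side in both, and no member passed the adjusted threshold in any panel.

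Between irradiated genotypes, 0 members were called at 30 min (0.101% of all) and 0 at 120 min (0.257% of all). At an unadjusted p under 0.05 by limma, 0 differed at 30 min, against 6.72% of all, and 3 were lower in KO at 120 min, against 3.74% of all. The medians were 0.12 and -0.42, and the second was 0.0 when KO 120 min A was left out. Averaged over the 3 conditions 0 were called (0.168% of all), with 2 higher and 2 lower unadjusted, against 2.99% and 3.46% of all, and a median of 0.16, which was -0.03 without untreated KO arrays A and C. Without untreated KO array B, Mb was called in that average, at 1.28, as were 14 of all 8873 probe sets (0.158%). No p is given for Mb, because it entered the test through KO arrays, on which it was high.

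How far the KO and WT responses differed was tested directly. At 30 min 0 members were called (0.0783% of all) and 4 were lower unadjusted by limma, against 2.81% of all, with a median of -0.69. That median was -0.08 without untreated KO arrays A and C, and 9 of the 29 members still testable changed sign. At 120 min 0 were called (0.134% of all), with 19 lower and 1 higher unadjusted, against 3.46% and 3.56% of all, and a median of -1.26. All 11 fast genes were among those 19, with a median of -2.21, whereas the slow genes had a median of 0.07. Myh1 and Tnni2, among the fast genes, had fewer than 2 arrays above the percentile apart from untreated KO arrays A and C. These counts and medians therefore describe the members and carry no test. Pvalb, at -2.44 ± 0.53, and Ckm, at -2.38 ± 0.52, came closest to the threshold, each by its representative probe set (both adjusted p = 0.172 by limma). Leaving out untreated KO arrays A and C moved the median of the 120 min difference to -0.58. Leaving out KO 120 min A instead moved it to -1.07. Either fit kept 1 array in a group, so only medians are given. Without untreated KO array B, 5 members were called by limma, against 18 of all 8873 probe sets (0.203%). They were Tnnc2 (-2.70), Pvalb (-2.85), Ckm (-2.75), Mb (-2.61) and Myh1 (-3.14). The count includes Mb and Myh1, which entered the test through the arrays on which they were high, so it carries no test.

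The muscle genes moved together from array to array. Over the 14 arrays the median Pearson r was 0.42 over the 561 pairs of tested members, 0.80 over the 55 pairs of fast genes (0.58 to 0.97), 0.21 over the 3 pairs of slow genes and 0.11 over the 33 pairs of a fast with a slow gene. Over all pairs of tested probe sets it was 0.0. An r above 0.8 was found for 19.6% of member pairs, 50.9% of fast pairs and 0.0842% of all pairs. These are descriptions over arrays that share group, scaling and, in part, the few arrays that stand apart, so no p is given.

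Over the means of the 6 genotype by time groups, the median r was 0.54 over members, 0.84 over fast genes, 0.16 over slow genes and 0.12 between fast and slow, against 0.0 over all pairs, of which 3.06% exceeded 0.8. After each group's mean was subtracted the medians were 0.43 over members and 0.75 over fast genes. The SD of the fast genes' mean within a group was largest where arrays stand apart, 0.82 in untreated KO and 0.76 in KO at 120 min. It was 0.37 in untreated WT, 0.46 in WT at 30 min, 0.08 in KO at 30 min and 0.02 in WT at 120 min. The within-group medians of r were not taken without the arrays that stand apart. Without untreated KO arrays A and C the medians over the other 12 arrays were 0.25 over members, 0.52 over fast genes, -0.01 over slow genes and 0.25 between fast and slow. Without KO 120 min A the member median was 0.38 and the fast median 0.76.

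The first principal component of the 34 members held 54.5% of their variance and the second 11%, against 15.6% and 12.4% over all tested probe sets. The share of a member's variance that lay between the 6 groups had a median of 55.2% (12% to 79.4%), against 40.9% over all probe sets. The within-group SD had a median of 0.47 on the log2 scale over members, against 0.26 over all, and the range over arrays had a median of 1.96, against 0.96.

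**Figure D4:**
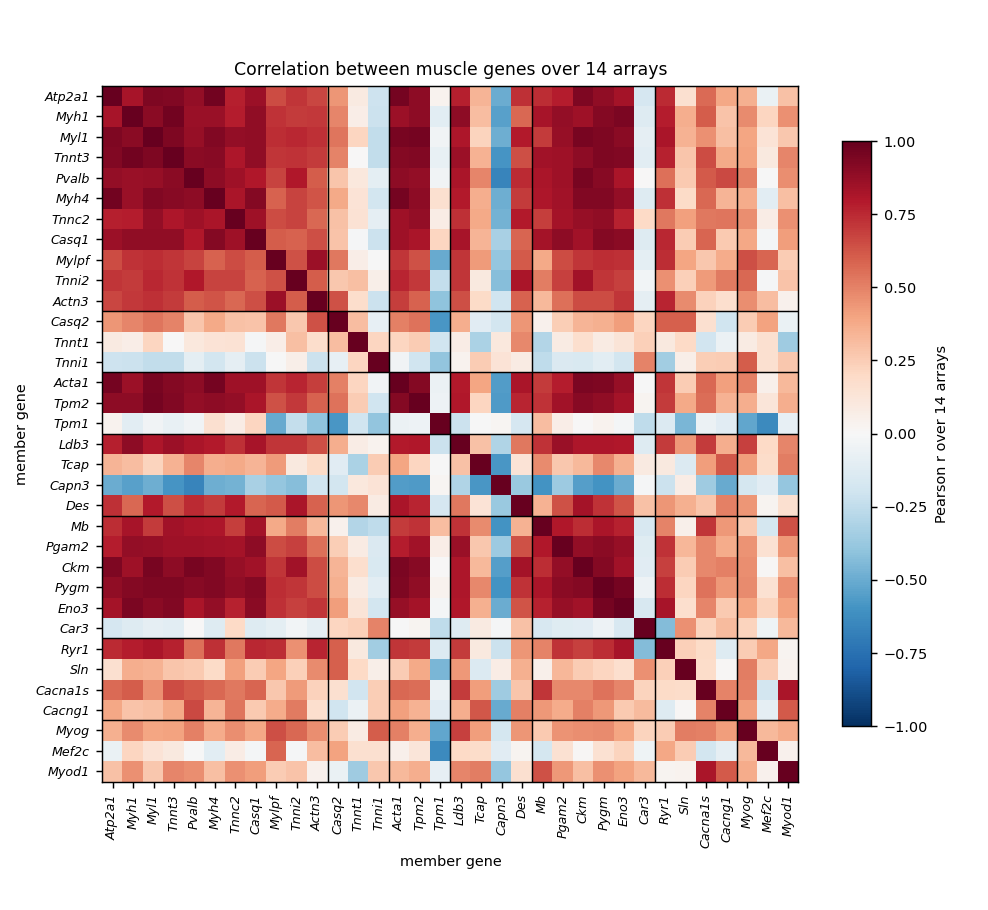
Pearson r between every pair of the 34 tested muscle genes over the 14 arrays, genes grouped by role with lines between roles. Fast fibre genes, Acta1, Tpm2 and most energy genes form a red block with r mostly above 0.5, while Tnni1, Tnnt1, Tpm1, Car3 and Mef2c stay pale against them and Capn3 is blue.

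Acta1, taken as the point of comparison because of its range, had an r of 0.96 with Myh4 (Spearman rho 0.78), 0.96 with Atp2a1 (rho 0.73), 0.95 with Myl1 (rho 0.79), 0.94 with Ckm (rho 0.86) and 0.93 with Pygm (rho 0.93) over the 14 arrays. When untreated KO arrays A and C were left out, r was 0.91 with Myh4, 0.92 with Atp2a1, 0.90 with Myl1, 0.88 with Ckm and 0.91 with Pygm. These 5 genes had the highest r with Acta1 over the 14 arrays, and the other 12 arrays still include KO 120 min A. Without KO 120 min A and untreated KO array C, r was 0.93, 0.93, 0.90, 0.89 and 0.92 in the same order. No r was taken without all of the arrays that stand apart. Mb and Mylpf were more dependent on untreated KO arrays A and C: r with Acta1 was 0.70 and 0.71 over all arrays and 0.31 and 0.44 without them. The slow gene Tnni1 had an r of -0.04 with Acta1, Tnnt1 0.21 and Casq2 0.50. Tpm1 was at -0.06, Car3 at -0.01, Mef2c at 0.05 and Capn3 at -0.56.

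Fast and slow fibre genes were set against each other as the mean deviation of each list from its gene means, on the log2 scale. The fast list, of 11 genes, lay at 1.33, -0.04 and 1.42 on untreated KO arrays A, B and C, at -0.08 and 0.03 (30 min) and at -1.07 and 0.0 (120 min). In WT it lay at -0.06, -0.50 and -0.79 (untreated), at 0.07 and -0.58 (30 min) and at 0.15 and 0.13 (120 min). Both untreated KO arrays A and C were above every other array, and KO 120 min A was below every other.

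The slow list, of 3 genes, lay at -0.27, 0.13 and 0.24 on the untreated KO arrays, at -0.24 and -0.10 (30 min) and at -0.50 and 0.31 (120 min). The slow list in WT lay at 0.12, 0.26 and 0.03 (untreated), at 0.02 and -0.14 (30 min) and at -0.04 and 0.17 (120 min). It put untreated KO arrays A and C on opposite sides of 0. KO 120 min A was lowest in both lists. The fast minus slow difference was 0.87 ± 0.93 in untreated KO (SD, n = 3 arrays), 0.15 ± 0.02 at 30 min and -0.44 ± 0.18 at 120 min (n = 2 each). In WT it was -0.59 ± 0.35 without treatment (n = 3), -0.20 ± 0.34 at 30 min and 0.07 ± 0.16 at 120 min (n = 2 each). Within untreated KO the SD exceeded the mean, and without arrays A and C it rested on 1 array. The slow list rests on 3 genes, of which Tnnt1 and Casq2 lay above the 40th percentile on 5 and 6 arrays.

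**Figure D5:**
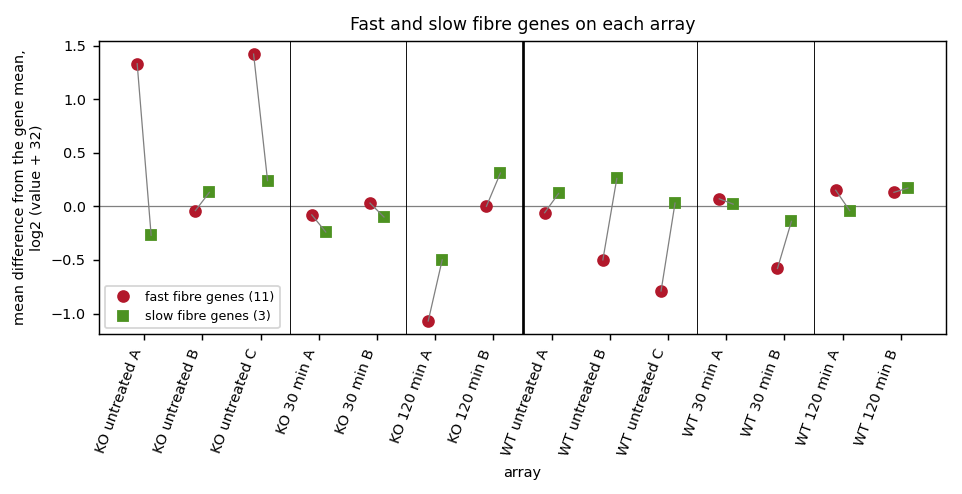
Mean deviation from the gene means, log2(value + 32), of 11 fast fibre genes (circles) and 3 slow fibre genes (squares) on each array, with a line joining the lists of 1 array. The fast list lies at 1.33 and 1.42 on untreated KO arrays A and C and at -1.07 on KO 120 min A, and the slow list stays between -0.50 and 0.31.

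Other skeletal muscle genes, from a list of 57 of which 37 were on the array and 27 were tested, had 0 called in any comparison. Between untreated genotypes 5 of the 27 were higher and 0 lower at an unadjusted p under 0.05 by limma (18.5%, against 5.47% of all probe sets), with a median of 0.15. By range, the first were Cox6a2, the muscle form of a cytochrome oxidase subunit, which ran from 19.7 to 570.3, and Myoz1, a calcineurin-binding protein of fast fibre Z-discs, which ran from 29.6 to 618.3, both highest on untreated KO array C. Ckmt2, the mitochondrial creatine kinase, had 206.3, 25.4 and 208.6 on untreated KO arrays and 32, 17.0 and 8.5 on untreated WT arrays. Chrnd, an acetylcholine receptor subunit, had its highest value, 202.2, on KO 30 min A, the array on which Chrna1 was also highest.

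Of the 6499 tested genes outside the members, the 10 whose profile over the 14 arrays was most like the mean standardised profile of the members were Plpp3 (r 0.88), Ckmt2 and Cox6a2 (0.83 each), Pde4dip (0.81), Mettl17 (0.80), Fhl1 (0.79), Krt6a (0.76), and Hoxb3, Egln1 and Rtn2 (0.74 each). Ckmt2, Cox6a2 and Fhl1, a LIM protein of muscle, were in the list of other skeletal muscle genes. Without untreated KO arrays A and C, r was 0.83 for Plpp3 and 0.77 for Egln1, but 0.49 for Ckmt2, 0.43 for Cox6a2, 0.36 for Fhl1 and 0.17 for Rtn2, which is not in that list. It was 0.57 to 0.72 for the other 4.

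Markers of other tissues were read on the same arrays. Of 11 cardiac genes on the array, Myh6, Myl7, Nkx2-5 and Tnnt2 were not tested, with highest values of 12.5, 22.8, 21.0 and 99.4. The 7 tested were Nppb, Tnni3, Myl4, Mybpc3, Nppa, Gata4 and Actc1, with highest values of 62.4, 114.5, 120.4, 141.9, 180.9, 184.0 and 567.4. Actc1, the actin of heart muscle, was highest on untreated KO array A and had an r of 0.68 with the members, and the other 6 had an r of -0.04 to 0.34. The cardiac sum was 1177, 932.8 and 890.5 on untreated KO arrays A, B and C, and it lay between 634.4 and 992.5 on the others. The summed intensity of 8 salivary gland genes was 49640, 65490 and 63150 on the untreated KO arrays, 77610 and 81930 in KO at 120 min and 58950 to 64530 on untreated WT arrays. Over all 14 arrays it lay between 49640 and 87840, and the median r of its genes with the members was 0.05. The sum is over deposited intensities, but r is over normalized values, in which these bright probe sets varied little. Prol1 ran from 7951.3 to 15198.3 as deposited and spanned 0.20 on the normalized log2 scale. This r therefore cannot show how salivary content followed the muscle genes. Of the lymphocyte markers that define lymph node, Cd79a of the B cell receptor lay between 233.4 and 921.4 and Cd3e of the T cell receptor between 26.2 and 156.1. The median r with the members was -0.10 over B cell markers, from -0.56 (Ms4a1) to 0.14 (Cd22). Over T cell markers it was -0.23, from -0.69 (Cd3e) to 0.18 (Zap70). B cell markers summed to 1540 to 1914 on untreated KO arrays and 1745 to 2249 on untreated WT arrays, and T cell markers to 683.5 to 830.4 in untreated KO and 988.8 to 1017 in untreated WT. At 120 min the B cell sum was 2642 and 1956 in KO and 1099 and 823.5 in WT, and the T cell sum was 918.9 and 823.1 in KO and 636.1 and 595.2 in WT. Against untreated WT, 8 of 9 B cell markers were lower in WT at 120 min at an unadjusted p under 0.05 by limma (4.02% of all probe sets), and 1 of them, Cd22, was called at -1.61 (adjusted p = 0.00535 by limma). In the difference of responses at 120 min, 6 of 9 were higher at an unadjusted p under 0.05 (3.56% of all), with 0 called. These are comparisons in which muscle changes are given above. Adipocyte markers summed to 1922 on KO 120 min A and 3662 on KO 120 min B, and to 2755 to 3167 on untreated KO and 3043 to 3370 on untreated WT arrays. Smooth muscle markers lay between 1323 and 2432 and nerve markers between 461.8 and 688.4. The part of these tissues in the muscle results was not tested, and in such whole-tissue RNA fewer cells of a type and less RNA per cell cannot be told apart. The Gapdh 3' to 5' ratio, which RNA degradation raises, was 0.896, 0.867 and 0.976 on untreated KO arrays and 0.857 on KO 120 min A, within its range of 0.723 to 1.07 over the 14 arrays. The beta-actin ratio was 1.244, 1.422 and 1.302 on untreated KO arrays A, B and C and 1.345 on KO 120 min A. Its range over the 14 arrays was 1.238 to 1.58, so untreated KO arrays A and C lay near its low end. The part of RNA quality in the muscle results was not tested.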

How the data were processed

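Murine lymph node RNA was measured on 14 Affymetrix arrays of 1 colour. For each array and probe set the authors deposited an intensity, not on a log scale. The software behind these values is not stated in the labels used here. Without its highest and lowest 2%, every array's deposited intensities averaged 150.1, so the arrays had been scaled to a common target. Array medians lay between 61 and 80.4. Precision is limited by the number of arrays.

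The log2(value + 32) was quantile normalized, because array medians spanned 0.273, above a limit of 0.2. Of 12488 probe sets, 66 controls were omitted, and 8938 of the other 12422 passed the filter (above the array's 40th percentile on at least 2 arrays). Genes were named from the platform annotation, in which 10855 probe sets carried 1 gene, 396 several and 1237 none. Those with several were not named. An Entrez ID matched 10839, and 0 symbols were updated.

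A model of 6 group means used all 14 arrays (limma 3.58.1, R 4.3.3, with 8 residual and 4.56 prior degrees of freedom), and p-values were adjusted by Benjamini-Hochberg over all tested probe sets. The fit was tested on simulated data. Correlations are over normalized values. The main model did not pair arrays by replicate letter. The 15 correlations of same-lettered arrays' deviations from their group means lay between -0.121 and 0.0844. In groups of 2 arrays the deviations of A and B mirror each other, so these values are not separate checks. They cannot show whether the letters mark pairs. Alternatives were another offset, a floor, no quantile normalization, no filter, fits of the compared groups alone, a block for the letter, the mean of a gene's probe sets and each array left out.

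The members, role lists and marker lists were chosen with earlier results of these data known. Values on every array are given for the 12 members with the largest range, the troponins and the regulators, and other probe sets where they disagreed. Of other muscle genes the examples were taken by range, and genes like the members by correlation. Promoters come from RefSeq, GRCm38.p6.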

Additional observations from a re-analysis of the deposited data

How the results depend on the processing

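Over 22 other settings, 214 of 219 counts of called members kept the value 0. Leaving out 1 array in turn, the count ranged from 0 to 1 in KO at 30 min against untreated KO, from 0 to 2 in KO at 120 min against untreated KO, from 0 to 4 between untreated genotypes, from 0 to 1 in the average over conditions and from 0 to 5 in the difference of responses at 120 min. The single call in KO at 30 min came without KO 30 min array B, in a fit that kept 1 array in that group, so it carries no test. The others came without untreated KO array B. A group left with 1 array was assumed to vary like the others. Leaving out untreated KO arrays A and C together, chosen after seeing the data, moved the members' median pairwise r over arrays to 0.25, that over the 6 group means to 0.23, the first component to 39.1% of variance, and the fast minus slow difference in untreated KO to 0.06. Without the filter, over 41 members, the median r was 0.20 and the median difference between untreated genotypes 0.52. With a replicate block, the count of called members was 0 in all 10 comparisons, and the median difference between untreated genotypes was 0.88. No called value changed sign, since no member was called with all arrays. Without untreated KO arrays A and C the median change turned to 0.01 in KO at 30 min (-0.56 with all arrays) and to -0.03 in the average over conditions (0.16), and 4 of 29 members changed sign between untreated genotypes, 14 in KO at 30 min and 9 in KO at 120 min. The WT median at 30 min (0.10) was -0.04 without untreated WT array C and -0.07 without WT 30 min array A. Limits: groups of 2 or 3 arrays, 3 that stand apart, low intensity of slow fibre genes, and probe sets that may read related genes. The cause of the arrays' difference was not tested.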
